A study of Drosophila melanogaster with 14 samples.

Results

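Insulator proteins are DNA-bound factors and cofactors that mark chromatin boundaries in the fly genome. The DNA-binding members recognise their own motifs, and BTB-domain cofactors such as Cp190 and Mod(mdg4) are brought in by them and join distant sites. Many of these sites lie next to promoters of broadly active genes or border the domains of developmental gene clusters, and GAF itself binds some boundaries. The genes described are the 10 rows of the count table with the symbols CTCF, su(Hw), BEAF-32, pita, zf30C, Ibf1, Ibf2, Cp190, mod(mdg4) and Chro, chosen by symbol, of 17868 rows in all. All 10 had enough counts to be tested in each of the 3 experiments.

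The 14 RNA-seq libraries were prepared from larval Drosophila brains, from type II neural stem cells, neuroblasts whose daughters pass through an intermediate progenitor stage on the way to neurons and glia. Each of 3 experiments had its own controls: 3 libraries labelled GAF RNAi against 3 controls, 2 labelled HDAC1 RNAi against 2 controls, and 2 labelled Osa overexpression against 2 controls, with every control given as wild type. GAF is the GA-repeat binding protein encoded by Trl, HDAC1 is a histone deacetylase, and Osa is a subunit of a SWI/SNF chromatin remodelling complex. No driver, transgene line, larval age or sex is given in the sources used here, nor whether replicates came from separate animals, so p-values speak only of library-to-library spread, part of which may be technical. The series design text speaks of an Osa knockdown, whereas the sample labels say overexpression.

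The targeted genes were read first. Trl had 5.18, 5.96 and 4.48 CPM (the count relative to library size after TMM scaling, which evens out composition differences within an experiment) in the libraries labelled GAF RNAi, against 6.29, 5.50 and 4.71 CPM in their controls. The groups overlapped, and the log2 fold change was -0.08 ± 0.25 (edgeR adjusted p = 0.843), so Trl RNA gave no check of the GAF RNAi label. In the BDGP6 annotation 77.8% of the exonic bases of Trl are shared on the same strand with other genes, mainly CG42507, which had 0 counts in all libraries, so the Trl count may cover only part of the gene. HDAC1 had 59.7 and 34.8 CPM in the libraries labelled HDAC1 RNAi, against 70.9 and 79.2 CPM in their controls, which missed the threshold (edgeR adjusted p = 0.576). RNA of osa averaged 294 ± 8.12 CPM in the Osa overexpression libraries, against 148 ± 2.45 CPM in controls (SD, n = 2 each), and was higher (log2 fold change 0.99 ± 0.13, edgeR adjusted p = 0.0029). Here and below, ± after a mean is the SD over libraries, ± after a log2 fold change is its standard error, and p is adjusted over all genes tested in that experiment with a threshold of 0.05.

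Library totals were 42372121 to 51505597 counts in the GAF experiment, 34124750 to 35648398 in the HDAC1 experiment and 31788351 to 34062172 in the Osa experiment. HDAC1 RNAi replicate 1 stood apart, with a TMM factor of 1.308 against 0.8994 to 1.115 in the other 13 libraries. The 7 neuroblast markers were dpn, pnt, btd, mira, klu, wor and grh. Their summed level was 1250 to 1420 CPM with GAF RNAi, against 1290 to 1510 CPM in controls. Of the 7, btd and wor were lower. In the other experiments this sum was 363 to 496 CPM with HDAC1 RNAi, against 1240 to 1260 CPM in controls (edgeR adjusted p of the 7 genes 0.112 to 0.763). It was 1060 CPM in both Osa overexpression libraries, against 1650 to 1810 CPM in controls. There btd was higher, and pnt, klu and grh were lower. All 5 intermediate progenitor markers were higher with GAF RNAi, at a sum of 143 to 183 CPM, against 54 to 84.9 CPM in controls. With Osa overexpression all 5 were again higher, at 649 to 855 CPM, against 203 to 250 CPM in controls. With HDAC1 RNAi the same sum was 133 to 370 CPM, against 63.4 to 103 CPM in controls, at an edgeR adjusted p of 0.232 to 0.48. Neuron markers were higher for 6 of 7 genes with GAF RNAi (556 to 801 CPM, against 234 to 386 CPM in controls) and for 2 of 7 with Osa overexpression (1570 to 1610 CPM, against 1120 to 1400 CPM in controls). With HDAC1 RNAi their sum was 1540 to 1820 CPM, against 749 to 866 CPM in controls, at an edgeR adjusted p of 0.0928 to 0.866. Summed markers of glia were 103 to 122 CPM with GAF RNAi, against 25.5 to 43 CPM in controls. Most of this was Eaat1, at a mean of 98.8 CPM, against 27.6 CPM in controls. Of the 6 genes, Eaat1 and repo were higher, and the other 4 did not pass, with Gs2 at -0.83. With HDAC1 RNAi the glia sum was 180 to 279 CPM, against 76.7 to 119 CPM in controls, at an edgeR adjusted p of 0.172 to 0.665. With Osa overexpression it was 89.1 to 113 CPM, against 58.7 to 63.7 CPM in controls, with gcm and Gs2 higher. Markers of other tissues were low, and some moved too. With GAF RNAi the sums were 1.7 to 2.89 CPM for blood cells, against 0.516 to 0.935 CPM in controls, 25.4 to 31.7 CPM for fat body, against 12.6 to 20.5 CPM in controls, and 2.91 to 3.32 CPM for muscle, against 0.867 to 1.56 CPM in controls, and the 1 gene tested of each list (Col4a1, Lsp1gamma and bt) was higher. Fat body markers summed to 2.08 to 6.4 CPM with HDAC1 RNAi, against 13.6 to 17.9 CPM in controls, where Lsp1gamma did not pass (edgeR adjusted p = 0.202). With Osa overexpression they summed to 3.25 to 4.43 CPM, against 9.63 to 12.3 CPM in controls, and Lsp1gamma was lower. Blood cell sums were 10.9 to 12 CPM with HDAC1 RNAi, against 7.86 to 17.1 CPM in controls, and 0.875 to 1.92 CPM with Osa overexpression, against 0.209 to 0.644 CPM. Muscle sums were 5.36 to 5.62 CPM with HDAC1 RNAi, against 6.89 to 8.08 CPM in controls, and 11.3 to 12.1 CPM with Osa overexpression, against 10.5 to 12.2 CPM. No marker of any list was at 0 in all libraries of an experiment. Several of these marker lists move with the treatments that the insulator genes are compared across, and their part in the results below was not tested. In bulk RNA, fewer cells of a type and less RNA per cell cannot be told apart.

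All 10 genes were expressed in the controls, over a wide range of levels. Per kilobase of annotated exon, BEAF-32, which binds next to many housekeeping promoters, averaged 192 ± 17.4 CPM in the controls of the GAF experiment (SD, n = 3). Ibf2 at 133 ± 22.3 CPM per kb and Ibf1 at 95.5 ± 8.65 CPM per kb came next. The proteins of these genes are insulator binding factors that associate with each other and with Cp190. The 3 genes ranked above 88.1% or more of tested genes on this scale. Then followed pita at 19.9 ± 4.53 CPM per kb, zf30C at 15.9 ± 2.15, Chro at 13.6 ± 1.26, Cp190 at 11.6 ± 2.99 and mod(mdg4) at 10.6 ± 2.83. Neighbours in this run of 5 overlapped in their control values. Read within each control library, pita lay above zf30C and zf30C above Chro every time. The places of Cp190 and mod(mdg4) changed between libraries. The lowest levels belonged to su(Hw), at 4.15 ± 0.566 CPM per kb, and CTCF, at 2.28 ± 0.0942 CPM per kb, and these did not overlap each other or any gene above.

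**Figure D1:**
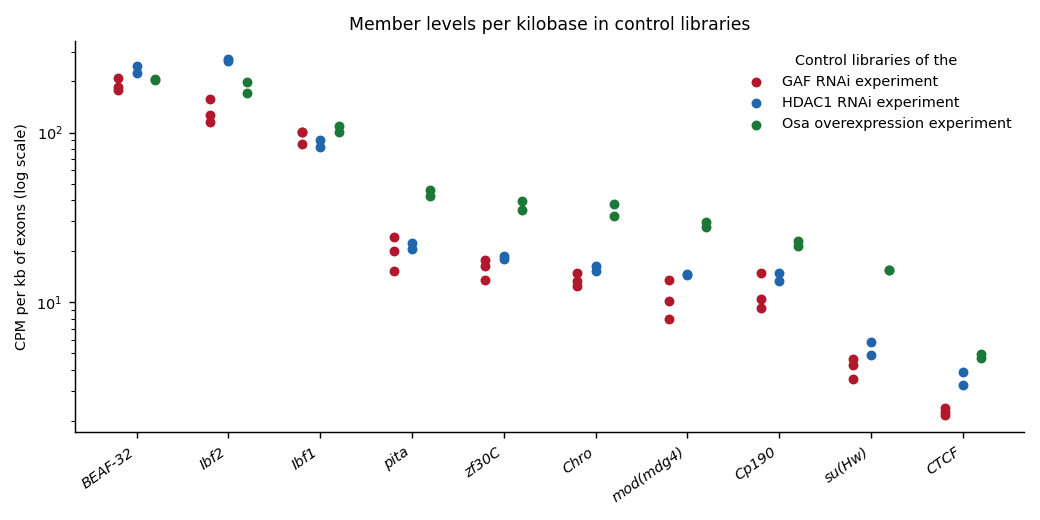
Level of each insulator protein gene in every control library, in CPM per kilobase of exon on a log scale, coloured by experiment, each point 1 library. Per kilobase of all annotated exons, BEAF-32, Ibf2 and Ibf1 lie above the other 7 genes in every control group, and CTCF lies lowest.

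The controls of the other experiments gave much the same order, with Ibf2 first (268 CPM per kb, against 235 for BEAF-32) in the HDAC1 experiment and mod(mdg4) ahead of Cp190 in both. Scaling was done within each experiment, so the levels of different experiments are set side by side only. The place of mod(mdg4) depends on the length used: its 22 annotated transcripts, formed by trans-splicing, cover 12432 exonic bases, but the longest has 2282 bases. Per kilobase of that transcript its level was 57.8 CPM in the GAF controls, 79.7 CPM in the HDAC1 controls and 157 CPM in the Osa controls. In the Osa controls this lay above Ibf1, at 105 CPM per kb.

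Several members share annotated sequence with other genes, and the library kit does not mark strand. In the BDGP6 annotation, 56.9% of the exonic bases of mod(mdg4) (chromosome arm 3R, 21350846 to 21377401, minus strand) are shared with 23 annotated precursor genes, 22 of which had no count in the table, with 4 counts in all for the other. CTCF (3L, 7353578 to 7356713, minus strand) has 25.8% of its exonic bases covered by genes on the opposite strand, mainly asRNA:CR45822, which had no count in any library. For BEAF-32 (2R, 14770469 to 14772630, plus strand) this share is 24.9%, with asRNA:CR42254, and for pita (2R, 23548967 to 23554712, minus strand) it is 8.54%, mainly with Dcp-1. Reads of these stretches cannot be assigned to a strand. Ibf2 (3R, 9257727 to 9258501, minus strand) and Ibf1 (3R, 9258964 to 9260400, plus strand) are neighbours that point away from each other, with 462 bases between their starts, and share no exonic base with another gene. The other 4 genes share at most 2.35% on the opposite strand.

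With GAF RNAi, the neighbouring genes Ibf1 and Ibf2 were higher and pita was lower, and the other 7 members did not pass the test. The 3 called genes of 10 stand beside 28.4% of all 9055 tested genes called in that experiment (12.5% higher and 15.9% lower), so the share among the members was close to that of all genes. The median log2 fold change was 0.12 over the 10 members and 0 over all genes.

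Ibf2 had 160.0, 155.6 and 141.7 CPM in the GAF RNAi libraries, against 112.0, 89.9 and 81.4 CPM in controls. Every GAF RNAi library lay above every control, with means of 152 ± 9.53 and 94.5 ± 15.8 CPM (n = 3 each), a 1.61-fold level. Its log2 fold change was 0.69 ± 0.14 (edgeR adjusted p = 0.00256). Ibf1 had 121.5, 109.7 and 121.8 CPM in the GAF RNAi libraries, against 96.5, 96.9 and 82.3 CPM in controls. The groups again did not overlap, and the log2 fold change was 0.36 ± 0.12 (edgeR adjusted p = 0.0431).

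The gene pita encodes a zinc finger protein that binds boundaries of the bithorax complex. It had 45.9, 40.7 and 40.4 CPM in the GAF RNAi libraries, against 45.5, 59.9 and 72.5 CPM in controls. The lowest control lay just below the highest GAF RNAi library, and the controls were more spread. The log2 fold change was -0.49 ± 0.17 (edgeR adjusted p = 0.0437). Another zinc finger gene, zf30C, had 33.6, 43.1 and 31.9 CPM in the GAF RNAi libraries, against 40.3, 48.6 and 52.8 CPM in controls. Those groups overlapped, and the difference of -0.38 ± 0.16 on the log2 scale passed only without adjustment (edgeR adjusted p = 0.0957).

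CTCF, the fly homologue of the vertebrate insulator protein, had 8.80, 9.39 and 7.64 CPM in the GAF RNAi libraries, against 6.86, 6.57 and 6.32 CPM in controls. The groups did not overlap, yet the log2 fold change of 0.39 ± 0.21 did not pass (edgeR adjusted p = 0.185). Of the members, 3 had groups that did not overlap, against 44.2% of all tested genes. The gene su(Hw), whose protein binds the gypsy insulator, gave a log2 fold change of 0.07 ± 0.19. For its partner mod(mdg4) the value was -0.09 ± 0.17, and for Cp190, which links several DNA-binding members, 0.29 ± 0.18. BEAF-32 stood at 0.06 ± 0.12 and Chro, a chromodomain protein of interband chromatin, at 0.18 ± 0.13, and edgeR adjusted p for these 5 genes was 0.252 to 0.811.

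The antisense RNA asRNA:CR42254, which lies opposite BEAF-32 and was singled out after its values were seen, had 45.9, 44.1 and 45.8 CPM in the GAF RNAi libraries, against 23.4, 17.9 and 17.9 CPM in controls. The log2 fold change was 1.20 ± 0.16 (edgeR adjusted p = 0.000163), while BEAF-32 itself did not pass. In the HDAC1 and Osa experiments its log2 fold changes were 0.13 ± 0.41 and 0.15 ± 0.26, and neither passed.

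Ibf2 passed in all 6 fits that left out a GAF experiment library. Ibf1 and pita passed in only 1 of these fits, that without control replicate 1, where 5 members were called (Cp190, Ibf1 and Ibf2 higher, pita and zf30C lower), beside 35.8% of all genes. DESeq2 called the same 3 members, limma-voom and the filter on a mean of 5 CPM lost pita (adjusted p = 0.058 and 0.073), and without a filter Ibf1 was lost (edgeR adjusted p = 0.0744).

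**Figure D2:**
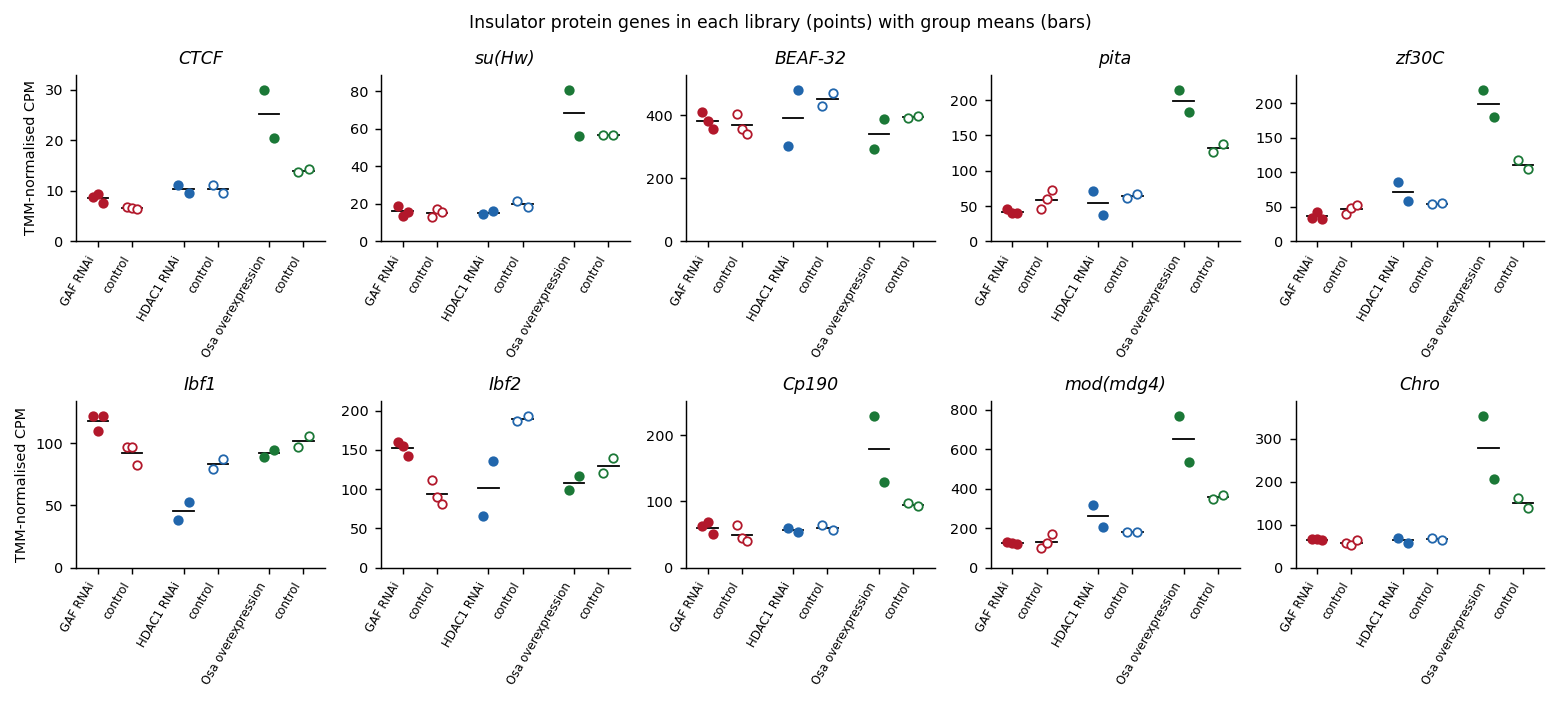
TMM-normalised CPM of each insulator protein gene in every library (points; filled for treated, open for control) with group means (bars), on linear axes that start at 0. Ibf1 and Ibf2 separate treated from control libraries upward with GAF RNAi and downward with HDAC1 RNAi, and 7 genes have higher means with Osa overexpression, the 6 called genes and su(Hw).

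With HDAC1 RNAi no member passed the edgeR test, and neither DESeq2 nor limma-voom called any. In the same experiment edgeR called 0.0971% of all 10299 genes, DESeq2 2.85% and limma-voom 0.0194%. At an unadjusted p under 0.05, edgeR gave 1 member, against 11.9% of all genes. The median log2 fold change was -0.14 over the members and 0.06 over all genes, and 5 members had groups that did not overlap, against 43.1% of all genes.

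That 1 member was Ibf1, which had 38.1 and 53.0 CPM in the HDAC1 RNAi libraries, against 79.6 and 87.3 CPM in controls. Both HDAC1 RNAi values lay below both controls, with a log2 fold change of -0.87 ± 0.37 (unadjusted p = 0.0391, edgeR adjusted p = 0.384). Ibf2 had 65.7 and 136.5 CPM in the HDAC1 RNAi libraries, against 186.6 and 193.2 CPM in controls. These groups did not overlap either, but the HDAC1 RNAi libraries were far apart, and the log2 fold change of -0.91 ± 0.46 did not pass (edgeR adjusted p = 0.483).

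Among the remaining genes, mod(mdg4) had 315.3 and 203.9 CPM in the HDAC1 RNAi libraries, against 181.3 and 182.4 CPM in controls. Its groups did not overlap, with replicate 1 much the higher, and the log2 fold change was 0.51 ± 0.44. Likewise zf30C had 86.5 and 57.8 CPM in the HDAC1 RNAi libraries, against 53.6 and 55.8 CPM in controls, with a log2 fold change of 0.40 ± 0.38. The value for su(Hw) was -0.37 ± 0.40, with 14.6 and 16.2 CPM in the HDAC1 RNAi libraries, against 21.6 and 18.2 CPM in controls. These were the other members whose groups did not overlap.

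In BEAF-32 and pita the HDAC1 RNAi libraries lay on opposite sides of the controls. For BEAF-32 they had 302.9 and 480.9 CPM, against 429.8 and 471.5 CPM in controls, and for pita 70.9 and 36.9 CPM, against 61.5 and 66.7 CPM in controls. Log2 fold changes of CTCF, Cp190 and Chro were 0.00 ± 0.44, -0.07 ± 0.36 and -0.08 ± 0.36.

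These values depend on which HDAC1 RNAi library is kept. Without HDAC1 RNAi replicate 1, only pita was called, at a log2 fold change of -0.77 (edgeR adjusted p = 0.0301), beside 14.4% of all genes. Without replicate 2, 5 members were called, with mod(mdg4) and zf30C higher and BEAF-32, Ibf1 and Ibf2 lower, beside 32.1% of all genes. Relative to controls, the median log2 difference of genes with 700 to 1000 exonic bases, the class of Ibf1 and Ibf2, was -0.69 in replicate 1 and 0.09 in replicate 2.

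The difference between the responses to GAF RNAi and to HDAC1 RNAi passed the test for Ibf1 and Ibf2. It was tested as a contrast in 1 fit of all 14 libraries, in which each response is taken against its own controls. For Ibf1 the difference on the log2 scale was 1.12 ± 0.24 (edgeR adjusted p = 0.0185). For Ibf2 it was 1.51 ± 0.32 (edgeR adjusted p = 0.0184). These are 2 of 10 members, beside 3.20% of 11181 genes, and the median difference of all genes was -0.14. Leaving out either HDAC1 control ended both calls, with edgeR adjusted p of 0.0881 and 0.119 for Ibf1 and 0.0743 and 0.0809 for Ibf2. The Ibf1 call also ended without GAF RNAi replicate 1, GAF RNAi replicate 3 or GAF control replicate 3, at an edgeR adjusted p of 0.051 to 0.0541. Without HDAC1 RNAi replicate 1, both passed, at 1.00 for Ibf1 and 1.15 for Ibf2.

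**Figure D3:**
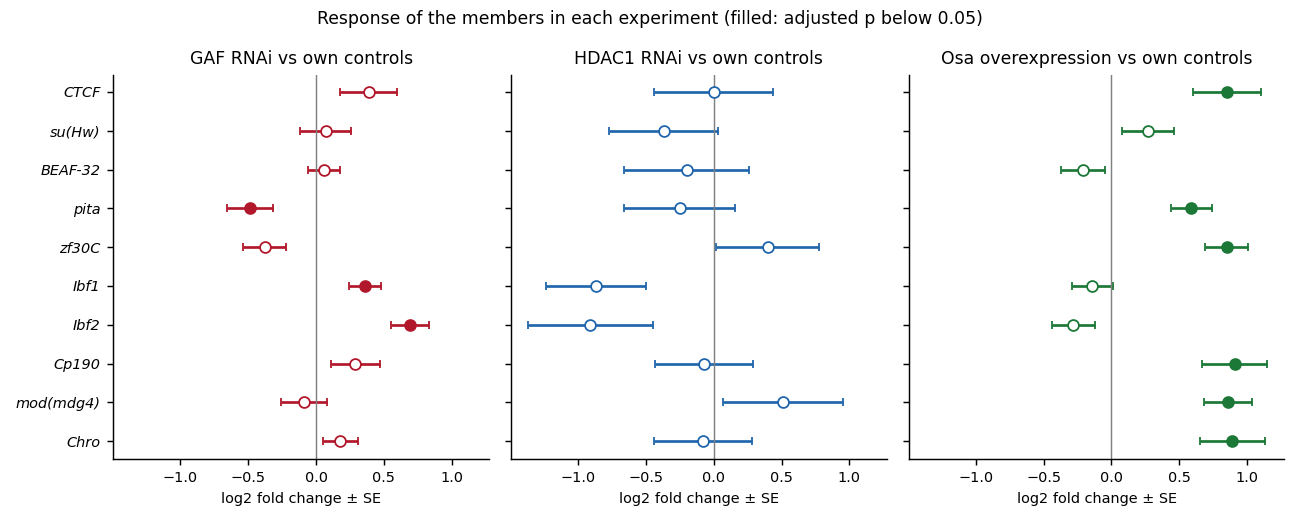
Log2 fold change of each insulator protein gene in the 3 experiments, treated over control, with bars of 1 standard error and filled points for an edgeR adjusted p below 0.05. Of 10 genes, 3 are filled with GAF RNAi (Ibf1 and Ibf2 above 0, pita below), 0 with HDAC1 RNAi and 6, all above 0, with Osa overexpression.

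With Osa overexpression 6 of the 10 members were higher and none was lower by edgeR, and no further member had an unadjusted p under 0.05. DESeq2 called the same 6, and limma-voom 5 of them, all but CTCF. The 6 were CTCF, mod(mdg4), Cp190, Chro, pita and zf30C, at 1.51 to 1.88 times the control level. Beside them, 21.1% of all 9156 genes were called, with 8.86% higher and 12.2% lower. With library size in place of TMM, which moves the median of all genes to 0.32, 1963 of 2501 calls were higher, against 811 of 1929 with TMM, and the same 6 members were called. The median log2 fold change with TMM was 0.72 over the members and 0.05 over all genes, and 9 members had groups that did not overlap, against 65.8% of all genes. All 6 called genes have at least 2892 exonic bases. Long genes as a whole were higher in these libraries. With that length trend removed 1 member, mod(mdg4), was called, beside 8.31% of all genes (2.40% higher).

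Among the cofactors, mod(mdg4) had 768.0 and 534.6 CPM in the Osa overexpression libraries, against 346.2 and 370.2 CPM in controls. Both overexpression libraries lay above both controls, with a log2 fold change of 0.86 ± 0.18 (edgeR adjusted p = 0.0121). Cp190 had 229.0 and 128.8 CPM in the Osa overexpression libraries, against 98.1 and 92.7 CPM in controls. The groups did not overlap, though replicate 1 was much higher than replicate 2, and the log2 fold change was 0.91 ± 0.24 (edgeR adjusted p = 0.0321). Chro had 352.5 and 205.0 CPM in the Osa overexpression libraries, against 161.7 and 138.2 CPM in controls. It showed the same imbalance between replicates, with a log2 fold change of 0.89 ± 0.24 (edgeR adjusted p = 0.0304).

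Of the DNA-binding members, zf30C had 219.5 and 179.3 CPM in the Osa overexpression libraries, against 117.3 and 104.5 CPM in controls. The groups were well apart, with a log2 fold change of 0.85 ± 0.16 (edgeR adjusted p = 0.00744). CTCF had 30.0 and 20.4 CPM in the Osa overexpression libraries, against 13.7 and 14.3 CPM in controls, and a log2 fold change of 0.85 ± 0.25 (edgeR adjusted p = 0.0395). Its groups did not overlap, and it had the lowest CPM of the 10. The values of pita were 214.8 and 183.3 CPM in the Osa overexpression libraries, against 126.0 and 137.6 CPM in controls, with a log2 fold change of 0.59 ± 0.15 (edgeR adjusted p = 0.0209).

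The other 4 members did not pass. Ibf1 had 88.9 and 94.9 CPM in the Osa overexpression libraries, against 97.3 and 105.8 CPM in controls, and Ibf2 98.5 and 116.4 CPM, against 120.5 and 139.8 CPM in controls. Both genes were slightly below their controls in both libraries, with log2 fold changes of -0.14 ± 0.15 and -0.28 ± 0.16. BEAF-32 had 292.8 and 388.8 CPM in the Osa overexpression libraries, against 390.1 and 397.1 CPM in controls, a log2 fold change of -0.21 ± 0.16. The gene su(Hw) had 80.9 and 56.2 CPM in the Osa overexpression libraries, against 57.0 and 56.8 CPM in controls. It was the only member with overlapping groups in this experiment, at 0.27 ± 0.19, and edgeR adjusted p for these 4 genes was 0.236 to 0.521.

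Single libraries also moved the Osa count. Without overexpression replicate 1, 5 members were called, all but CTCF of the 6, beside 16.7% of all genes. Without overexpression replicate 2, 9 were called, 7 higher and 2 lower (BEAF-32 and Ibf2), beside 36.5% of all genes. Leaving out control replicate 1 left zf30C as the only call, beside 5.10% of all genes, and leaving out control replicate 2 left mod(mdg4), beside 5.91%. The members' count thus moved with the number of genes called in all. In a fit of all 14 libraries with a shared spread, no member and 3.17% of all genes were called, with log2 fold changes of the 6 genes at 0.59 to 0.90 and edgeR adjusted p of 0.0628 to 0.303.

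The relation of gene length to the Osa comparison was looked at after these values were seen. Tested genes of up to 700 exonic bases had a median log2 fold change of -0.52, those of 700 to 1000 bases -0.46, of 1000 to 1500 bases -0.28 and of 1500 to 2000 bases -0.05. In longer classes the median was 0.22 for 2000 to 3000 bases, 0.48 for 3000 to 4000, 0.39 for 4000 to 6000 and 0.17 above 6000. In these 4 long classes 13.3%, 21.6%, 17.6% and 9.09% of genes were called higher. The trend was steeper in overexpression replicate 1, at a median of 0.62 for 3000 to 4000 bases, against 0.30 in replicate 2. Within their own classes the 6 called members, chosen here by that call, ranked from percentile 74.3 for pita to percentile 92.2 for mod(mdg4). The class of mod(mdg4) rests on its 12432 exonic bases, whereas its longest transcript has 2282. The uncalled Ibf1 and Ibf2 ranked at percentiles 73.7 and 65.4, and su(Hw) and BEAF-32 at 35.9 and 33.4.

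When the trend with exonic length was removed from each library by an offset, edgeR called 8.31% of 9114 genes and 1 of the 10 members. For mod(mdg4) the log2 fold change was then 0.77 (edgeR adjusted p = 0.0306). The other 5 kept a positive sign, at 0.21 for pita, 0.41 for Chro, 0.42 for Cp190, 0.46 for zf30C and 0.47 for CTCF, and did not pass (edgeR adjusted p = 0.0523 to 0.306). The values of Ibf1 and Ibf2 turned to 0.30 and 0.25, and that of su(Hw) to -0.21. The cause of the length trend was not tested.

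In the GAF comparison the same offset fit called 28.0% of 9014 genes and 2 members, Ibf1 at 0.29 and Ibf2 at 0.49 (edgeR adjusted p = 0.0434 and 0.00774). The fall of pita was -0.31 in that fit and no longer passed (edgeR adjusted p = 0.0898). Genes of 700 to 1000 bases had a median log2 fold change of 0.14 with GAF RNAi, and 17.9% of them were called higher. With HDAC1 RNAi the offset fit called no member. The contrast between the GAF and HDAC1 responses passed with the offset, at 0.85 for Ibf1 and 1.12 for Ibf2 (edgeR adjusted p = 0.0192 and 0.0039).

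**Figure D4:**
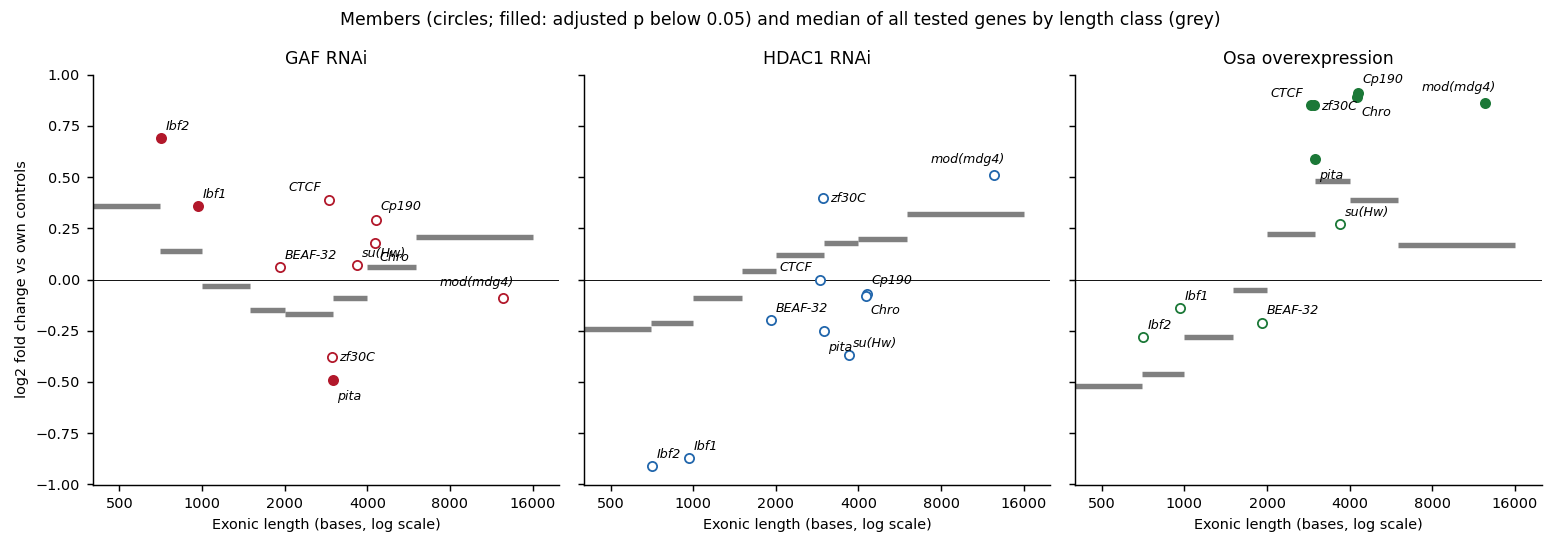
Log2 fold change of each insulator protein gene (circles, filled for an edgeR adjusted p below 0.05) against its exonic length on a log scale, with the median of all tested genes in each length class (grey bars). With Osa overexpression the grey medians climb from -0.52 to 0.48 with length up to 4000 bases, and the unfilled su(Hw) and BEAF-32 lie below the median of their class.

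In the main fit no member passed the test of a difference between the GAF and Osa responses, where edgeR called 2.87% of 11181 genes after adjustment. With no filter zf30C and pita passed, at -1.25 and -1.10 (edgeR adjusted p = 0.0167 and 0.0454). The fit shares its spread over all 14 libraries, so the outcome also rests on libraries outside this contrast. Without HDAC1 RNAi replicate 1 or 2 the zf30C difference stayed at -1.24, but the calls of Ibf2, mod(mdg4), pita and zf30C changed. In the main fit, at an unadjusted p under 0.05, edgeR gave 5 members. The share of all genes at that cut was not obtained, so this count has no background to be read against. The largest of the 10 in size was zf30C, at -1.24 ± 0.34 (edgeR adjusted p = 0.062), followed by pita at -1.10 ± 0.39 (edgeR adjusted p = 0.128). None passed in the main fit between the HDAC1 and Osa responses either, where edgeR called 0.00894% of the genes after adjustment. There 2 members, Chro and Ibf1, had an unadjusted p under 0.05, again without a share of all genes at that cut. By the main fit, a call in the Osa experiment and none in the GAF or HDAC1 experiment is therefore not shown to be a difference between them.

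Genes that work with insulator proteins were read from a list of 38, of which 37 were tested in each experiment. The list held DNA-binding boundary factors, cofactors, and cohesin and condensin subunits. With GAF RNAi 3 of the 37 were higher and 3 lower, a smaller share in each direction than the 12.5% higher and 15.9% lower of all genes. Among the 9 DNA-binding factors tested, 1 was called: Elba2, a subunit of the early boundary factor complex ELBA, at 7.80 ± 1.05 CPM with GAF RNAi, against 12.8 ± 1.95 CPM in controls (log2 fold change -0.72 ± 0.21, edgeR adjusted p = 0.0193). Of 14 cofactors, 3 were higher and 2 lower. The RNA helicase Rm62, which acts with Cp190 at gypsy insulators, fell to 516 ± 48.2 CPM with GAF RNAi, against 1210 ± 273 CPM in controls (log2 fold change -1.23 ± 0.15, edgeR adjusted p = 0.000106). JIL-1, the histone H3 kinase that binds Chro, was higher, at 157 ± 0.455 CPM with GAF RNAi, against 113 ± 14.4 CPM in controls (log2 fold change 0.47 ± 0.12, edgeR adjusted p = 0.0124). Also called were lawc at 0.42, rump, an RNA-binding protein, at 0.43 and AGO2, an Argonaute protein named after its value was seen to complete the 5, at -0.37. For the 14 cohesin and condensin genes edgeR adjusted p was 0.0625 to 0.963.

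With HDAC1 RNAi none of the 37 was called by edgeR, DESeq2 or limma-voom. At an unadjusted p under 0.05, edgeR gave 2, HIPP1 and the RNA-binding shep, against 11.9% of all genes. Both are named after their values were seen. Their log2 fold changes were 1.09 ± 0.38 and 1.21 ± 0.44.

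With Osa overexpression edgeR called 12 of the 37 higher and none lower, DESeq2 14 higher and limma-voom 11 higher, again with none lower. Of all genes these tools called 8.86%, 12.3% and 6.78% higher. At an unadjusted p under 0.05, edgeR gave 1 with a negative sign, e(y)2 (log2 fold change -0.38 ± 0.16). Cohesin and condensin subunits made up 6 of the 12, of 14 tested, with a median log2 fold change of 0.69. The cohesin subunit SA had 92.0 ± 24 CPM with Osa overexpression, against 38.6 ± 4.5 CPM in controls (log2 fold change 1.25 ± 0.21, edgeR adjusted p = 0.00556). Cap-D2, a condensin subunit, had 144 ± 61.1 CPM with Osa overexpression, against 56.2 ± 5.66 CPM in controls (log2 fold change 1.36 ± 0.27, edgeR adjusted p = 0.0119). SMC3, of cohesin, stood at 1.01 ± 0.22 and Cap-G, of condensin, at 1.16 ± 0.26. Of the 14 cofactors 3 were called, with pzg, the Z4 protein that binds Chro, at 1.18 ± 0.31, the helicase mle at 1.14 ± 0.29 and rump at 0.66 ± 0.17. Among DNA-binding factors 3 of 9 were called, at 0.50 ± 0.13 for Dref, a factor of replication gene promoters, 0.55 ± 0.14 for insv, a BEN-domain DNA-binding protein, and 0.49 ± 0.15 for Clamp, which binds GA repeats. With the length offset 2 of the 37 were called, beside 8.31% of all genes, and with library size in place of TMM 20 were higher, beside 21.4% of all genes.

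**Figure D5:**
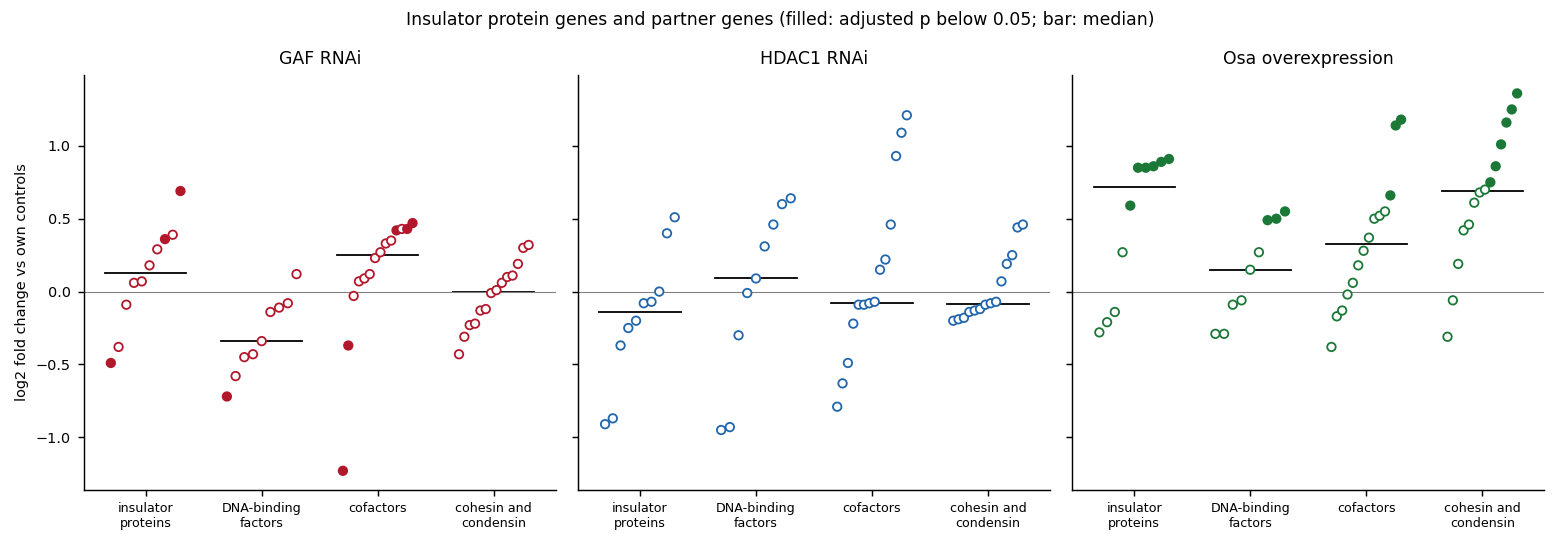
Log2 fold change of the insulator protein genes and of 3 lists of genes that work with them, in each experiment, with bars at the medians and filled points for an edgeR adjusted p below 0.05. With Osa overexpression 6 of 10 insulator protein genes and 6 of 14 cohesin and condensin genes are filled, all above 0.

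For each member called in an experiment, the genes with the most similar pattern were taken by Pearson's r of log2 CPM over the 14 libraries, each centred on the mean of its experiment, among 5181 genes. These values are a description: they rest on the treatments as well as on spread between replicates, and depth and gene length are shared by the points. Chro was closest to pzg (0.957) and SMC2 (0.956), and CTCF to SMC3 (0.940) and jar (0.923). For Cp190 the closest were mxc (0.918) and CTCF (0.917), and for mod(mdg4) Sra-1 (0.977) and Usp5 (0.973). Ibf1 was closest to Fancl (0.948) and to its neighbour Ibf2 (0.934), and Ibf2 to msd1 (0.959) and Rpb11 (0.958). The genes nearest to Ibf1 and Ibf2 have 516 to 1248 exonic bases. For pita the closest were Pms2 (0.964) and Zw10 (0.963), and for zf30C AlaRS-m (0.936) and GCC88 (0.932).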

How the data were processed

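The authors deposited 1 table of raw counts, with a row per gene and a column per library. The submitters' processing notes name the dm6 genome, featureCounts 2.0.3, HISAT2 2.2.1, Trim Galore 0.6.10 and SAMtools 1.6, but no annotation or counting unit (reads or pairs). Even numbers made up 61.5% to 70.4% of the counts from 1 to 49. Per the labels, RNA of 1k to 2k cells was amplified with a whole-transcriptome kit before tagging with a transposase kit, which leaves strand unmarked. Of the table's 17868 rows, 17765 matched the BDGP6 annotation, which gave coordinates and lengths and may differ from that used for counting.

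Groups follow the sample titles, and comparisons were made within an experiment. Genes passing the edgeR filter (minimum count 10, minimum total 15) were normalised with TMM factors, and R 4.3.3 with edgeR 4.0.16 ran its robust quasi-likelihood test, with Benjamini-Hochberg adjustment over all genes tested and a threshold of 0.05. The standard error of a log2 fold change was obtained from its F statistic. Differences between experiments were contrasts in 1 fit of all groups. The length offset was a loess trend (span 0.5) on log2 exonic length, fitted in each library for genes with a length. It was fitted to the deviation of log2 CPM from the gene's mean over the libraries, then centred per gene. Treated and control libraries both enter that mean, so a treatment effect that varies with length is removed too.

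Alternatives were RLE factors, library size only, no filter, a 5 CPM minimum on the mean, limma-voom (limma 3.58.1), DESeq2 1.42.0, all 14 libraries in 1 fit, a replicate block, counts divided by 2 and rounded up, and each library left out. The length offsets and the leaving out of libraries in contrasts were added after seeing the data. The tests were tried on simulated counts with known changes. Replicate pairs differed by more than sampling noise: over genes of 100 or more counts the median chi-square was 132 for the HDAC1 RNAi pair and 7.52 to 28.8 for the others.

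The members and gene lists were chosen with earlier results of these data known. Named were all members, the targeted genes, of the 38 listed partner genes at most 4 called ones per group of the list and experiment by smallest p, and for each called member the 2 genes of most similar pattern, leaving out CG, CR and non-coding names. Plots used Python 3.11.15 with matplotlib 3.10.9.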

Additional observations from a re-analysis of the deposited data

Results flagged for a closer look

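The responses of Ibf1 and Ibf2 to GAF RNAi and to HDAC1 RNAi differed by the test of the difference itself, in 1 fit of all 14 libraries. For Ibf1 the GAF response minus the HDAC1 response was 1.12 ± 0.24 on the log2 scale (edgeR adjusted p = 0.0185), with responses in that joint fit of 0.34 to GAF RNAi and -0.78 to HDAC1 RNAi. For Ibf2 it was 1.51 ± 0.32 (edgeR adjusted p = 0.0184), with responses in that fit of 0.67 to GAF RNAi and -0.84 to HDAC1 RNAi. In each gene, 3 of 3 GAF RNAi libraries lay above all their controls and 2 of 2 HDAC1 RNAi libraries lay below all of theirs. Groups without overlap were common, at 44.2% of all tested genes with GAF RNAi and 43.1% with HDAC1 RNAi. As described above, both calls of the difference depended on keeping both HDAC1 controls. The response to HDAC1 RNAi passed for Ibf1 in the joint fit (edgeR adjusted p = 0.0367) but not for Ibf2 (0.0783), and for neither gene in the fit of the HDAC1 experiment alone.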

How the results depend on the processing

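With GAF RNAi, 1 member in place of 3 was called with library size only, the replicate block and all 14 libraries in 1 fit. The share of all genes called was 27.0%, 25.9% and 13.0% in turn, against 28.4% in the main fit. The fit of all 14 libraries also called 1 partner gene in place of 6. Leaving out a library gave 1 to 5 members and 1 to 12 partner genes, beside 17.1% to 35.8% of all genes. With HDAC1 RNAi, the fit of all 14 libraries called 1 member, Ibf1, and 2 partner genes, and leaving out a library gave 0 to 5 members and 0 to 10 partner genes. With Osa overexpression, that fit called 0 members and 1 partner gene in place of 6 and 12, either length offset 1 member and 2 partner genes, and library size only 20 partner genes, while leaving out a library gave 1 to 9 members and 2 to 23 partner genes. Members called in the contrasts, leaving out a library, were 0 to 5 for GAF minus HDAC1, 0 to 4 for GAF minus Osa and 0 to 2 for HDAC1 minus Osa, and 2 for GAF minus Osa with no filter.

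For the contrasts just given, the share of all genes called was not obtained with a library left out or with no filter. Their counts of members in those fits therefore have no background, and a general rise in calls cannot be told apart. Replicate numbers were not used as pairs in the main fits. Deviations of same-numbered libraries from their group means correlated at -0.14 to 0.14. With 2 libraries in a group both replicates give the same value. These correlations cannot show whether libraries were prepared in pairs. In the fit with the replicate block 5 members were called with Osa overexpression and 0 with HDAC1 RNAi, CTCF losing its call at an edgeR adjusted p of 0.0551, and Ibf1 and pita losing theirs with GAF RNAi at 0.082 and 0.0611.

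The following values changed sign. In the GAF experiment mod(mdg4) was 0.16 with the offset by longest transcript, leaving out a library gave it -0.28 to 0.13, and gave su(Hw) -0.07 to 0.18. In the HDAC1 experiment CTCF was -0.04 with RLE factors and with DESeq2, -0.01 with the 5 CPM filter, -0.02 with counts divided by 2, and -0.13 and -0.14 with the length offsets. Library size only, which moved the median of all genes there to 0.33, gave 0.21 for Cp190 and for Chro, 0 for BEAF-32 and 0.09 for pita, and the fit of all 14 libraries gave 0.04 for Cp190 and for Chro. Leaving out a library of that experiment gave CTCF -0.11 to 0.17, Cp190 -0.15 to 0.05, BEAF-32 -0.56 to 0.12, Chro -0.19 to 0.04 and pita -0.77 to 0.15. In the Osa experiment library size only gave 0.07 for BEAF-32 and 0.13 for Ibf1. The length offset there gave -0.21 for su(Hw), 0.30 for Ibf1 and 0.25 for Ibf2, that by longest transcript -0.23, 0.30 and 0.25, and leaving out a library gave su(Hw) -0.02 to 0.49.

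Among contrasts, GAF minus HDAC1 was -0.04 for Chro with library size only and 0.04 for pita with the length offset, and leaving out a library gave BEAF-32 -0.05 to 0.38, Chro -0.11 to 0.38 and pita -0.89 to 0.30. GAF minus Osa was -0.01 for BEAF-32 with library size only, and 0.30 for su(Hw) and -0.02 for Ibf1 with the length offset, and leaving out a library gave su(Hw) -0.44 to 0.06. HDAC1 minus Osa was -0.06 and 0 for BEAF-32 with library size only and the length offset, and leaving out a library gave mod(mdg4) -0.70 to 0.17, BEAF-32 -0.13 to 0.34 and zf30C -0.77 to 0.06. Where a group was left with 1 library, that library was assumed to vary like the others. The cause of these changes was not tested, and some of the fits held fewer libraries or genes. Counts without molecular identifiers are not independent molecules, so counting error is wider than their totals give.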
